A study of Mus musculus with 778 samples.

Results

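Kinesins are motor proteins that walk along microtubules, and their genes were followed here through the growth of the mouse oocyte. Every gene of the deposited count table whose symbol began with Kif and a digit was taken, and symbols with a hyphen were dropped, which left 39 of 23201 genes. Of these, 37 encode kinesin motors. The other 2 do not: *Kif1bp* encodes a protein that binds kinesins, and *Kif16bos* is a transcript antisense to *Kif16b*. By their textbook roles, 13 motors were placed in a spindle class, 15 in a transport class and 9 in a class of cilium and other functions, and the spindle class was set against the transport class in each stage.

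A kinesin turns the energy of ATP into steps along a microtubule, mostly towards its growing end, and a few kinesins take microtubules apart instead of walking. Spindle kinesins slide, shorten and cross-link microtubules, move chromosomes and carry out cytokinesis, while transport kinesins carry vesicles, organelles and RNA or build cilia. The growing oocyte is arrested in prophase of meiosis and has no spindle, and it stores mRNA that is translated when meiosis resumes and its acentrosomal spindle is built.

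Single oocytes of wild-type ICR mice were picked by hand and sequenced, with a unique molecular identifier (UMI) on each cDNA molecule so that copies of 1 molecule were counted once. Non-growing oocytes (NGO, under 20 μm in diameter, 46 cells) came from mice 3 to 4 days old. Growing oocytes of 30 to 45 μm (GO1, 51 cells), 50 to 55 μm (GO2, 26 cells) and 60 to 65 μm (GO3, 44 cells) and fully-grown oocytes over 70 μm (FGO, 56 cells) came from mice 3 to 4 weeks old, so that growth and mouse age cannot be told apart in any comparison with NGO. A column name gives the stage but neither the library nor the animal of a cell, so each stage was 1 pooled sample, and no test between stages was possible.

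Levels are the pooled UMIs of a gene in a stage as counts per 1000000 UMIs of that stage (CPM), which is a share of the counted RNA and not an amount per oocyte. Stage totals lay between 24976634 and 64311908 UMIs. Single cells held between 22279 and 3898137 UMIs, and the 10 deepest cells gave 80.4% of the GO1 total and 73.2% of the GO2 total, against 42.6% to 49.7% in the other stages. Intervals on sums (exact Poisson) and on folds (exact, from the binomial split of both counts) are at 95% and cover counting error only, not the spread between cells, animals or libraries. All 11 oocyte markers examined were counted in every stage, with a summed level of 15474 to 28426 CPM. The 9 granulosa markers summed to 9.37 to 29.6 CPM, of which *Cyp19a1* gave 16.3 CPM in GO1 and 1.11 CPM in NGO, and *Amh* stayed at or under 0.112 CPM. The 7 stromal and theca markers summed to 2.06 to 12.6 CPM and the 6 blood markers to 1.64 to 4.6 CPM, with both hemoglobin genes, *Hbb-b1* and *Hba-a1*, at 0 UMIs in every stage. The part of other cells in the kinesin results was not tested.

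A level of 10 CPM was reached in some stage by 23 of the 39 kinesin genes and in all 5 stages by 17. The 23 were 11 spindle genes, 9 transport genes, 2 genes of the cilium class and *Kif1bp*. The stage of the highest level was NGO for 9 of them, GO1 for 9, GO2 for 1, GO3 for 1 and FGO for 3. When every cell had the same weight (CPM computed in single cells and then averaged), those counts became 9, 5, 2, 5 and 2, so that fewer genes peaked in GO1.

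**Figure D1:**
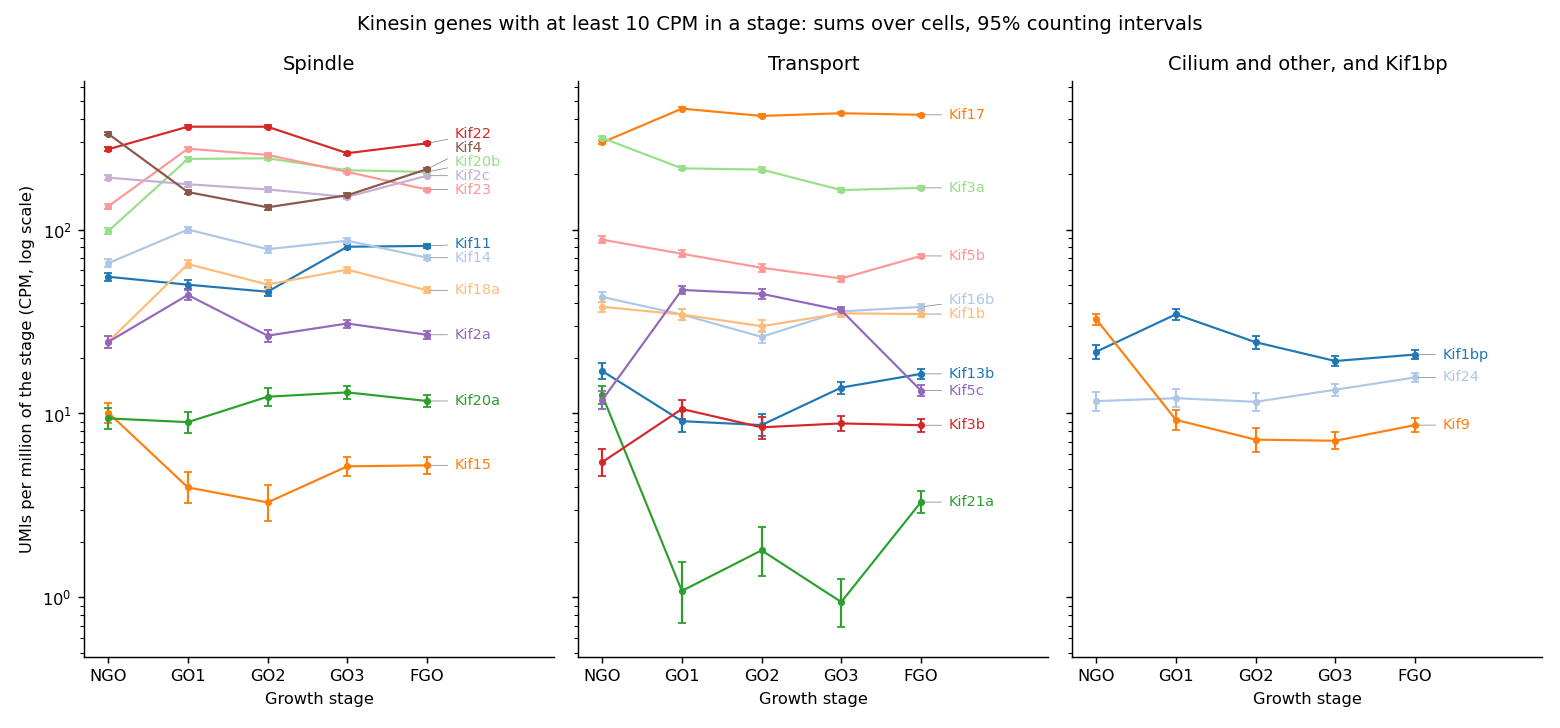
CPM of the 23 kinesin genes with at least 10 CPM in a stage (log axis) against growth stage, from sums over all cells, with exact Poisson 95% intervals as bars. *Kif5c* stood at 47 CPM in GO1 between 11.8 CPM in NGO and 13.3 CPM in FGO, whereas most genes kept within 2-fold from GO1 to FGO.

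Among the spindle kinesins, those that act on chromosomes and kinetochores had no common course. *Kif4*, a chromokinesin of chromosome arms and the central spindle, was at 332 CPM in NGO, 160 and 132.2 in GO1 and GO2, and 153.7 and 213 in GO3 and FGO. It was thus highest in non-growing oocytes and lowest in GO2, and NGO exceeded GO1 2.07-fold (interval 2.0 to 2.15). The table also has a row for a *Kif4* pseudogene, left out by the hyphen rule. Reads may be shared between the copies, so the level of *Kif4* is uncertain. *Kif22*, the chromokinesin Kid that pushes chromosome arms away from the spindle poles, was at 273, 363, 363, 260 and 295 CPM over the same stages. *Kif2c* (MCAK), a microtubule depolymerase at centromeres, was at 192, 176, 165, 150.6 and 196 CPM. Neither gene changed 2-fold between any stages compared in the sums, but for both the level differed between deep and shallow GO1 cells, as described further on. *Kif18a*, which shortens kinetochore microtubules and damps chromosome movement, was at 24.5 CPM in NGO and then at 65.0, 50.3, 60.6 and 46.8 CPM. All stages of older mice lay above NGO, and GO1 exceeded NGO 2.65-fold (2.42 to 2.91). *Kif18b*, its relative on astral microtubules, stayed under 10 CPM and ran the other way, with 8.29 CPM in NGO and 4.26 to 5.16 CPM afterwards. UMIs of *Kif18a* per UMI of *Kif18b* were therefore 2.96 (2.52 to 3.48) in NGO and 13.4 (11.2 to 16.1) in GO1, and they were 9.06 (8.08 to 10.2) in FGO. *Kif2b*, a depolymerase of kinetochores, had 0 UMIs in every stage, which allows at most 0.119 CPM in NGO and 0.0466 CPM in FGO (3 UMIs over the stage total).

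The kinesin-6 genes, which work at the central spindle and midbody during cytokinesis, included *Kif20b* and *Kif23*, both higher in GO1 than in NGO. *Kif20b* was at 98, 242, 244, 210 and 206 CPM from NGO to FGO. It stayed high after GO1, with GO1 over NGO at 2.47-fold (2.36 to 2.59) and FGO over NGO at 2.10-fold (2.01 to 2.19). *Kif23*, the motor subunit of centralspindlin, was at 133.8 CPM in NGO, then 275, 255 and 206 CPM through the growing stages and 165 CPM in FGO. It was 2.06-fold higher in GO1 than in NGO (1.98 to 2.14) and in the sums was lower in each later stage than in the one before. By means over cells, *Kif23* in GO2 (273 CPM) lay above GO1 (258 CPM). *Racgap1*, the other subunit of centralspindlin, stood at 111.2 and 85.9 CPM in NGO and GO1, and UMIs of *Kif23* per UMI of *Racgap1* went from 1.2 (1.14 to 1.27) to 3.21 (3.06 to 3.36) and stood at 2.29 (2.21 to 2.37) in FGO. *Kif20a*, which brings the chromosomal passenger complex to the central spindle, stayed between 8.97 and 13 CPM. *Kif14*, a kinesin-3 needed for cytokinesis, had in the sums its highest level of 100.03 CPM in GO1 and its lowest of 65.6 CPM in NGO. By means over cells *Kif14* was highest in GO3 (84.9 CPM) and lowest in FGO (61.5 CPM).

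The kinesins of spindle poles and spindle bipolarity differed again. *Kif11* (Eg5), the tetrameric motor that slides antiparallel microtubules apart, was at 55.4, 50.2 and 45.9 CPM in NGO, GO1 and GO2, and at 80.7 and 81.5 CPM in GO3 and FGO. The step from GO2 to GO3 was 1.76-fold (1.65 to 1.88), short of 2-fold, and it was of like size (1.81-fold) as a mean over cells. *Kif15*, which can stand in for *Kif11*, was at 10.1 CPM in NGO and between 3.28 and 5.22 CPM afterwards, a level in GO1 2.55-fold (2.03 to 3.23) under that in NGO. That direction did not hold in cells thinned to 20000 UMIs each, where the log2 difference was 0.27. *Kif2a*, a depolymerase of spindle poles, was at 24.5 CPM in NGO, 44.1 in GO1 and 26.5 to 30.8 in the later stages.

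Promoters of the 5 spindle genes that passed 2-fold from NGO to GO1 are printed to set the 3 that were higher in GO1 beside the 2 that were lower. In the mm9 annotation (NCBIM37), *Kif18a* lies on chromosome 2 from 109120895 to 109181904 on the plus strand, *Kif20b* on chromosome 19 from 34996848 to 35050221 on the plus strand, and *Kif23* on chromosome 9 from 61765087 to 61794606 on the minus strand. *Kif4* lies on chromosome X from 97821076 to 97922553 and *Kif15* on chromosome 9 from 122860199 to 122927843, both on the plus strand. *Kif18a* overlaps *Mettl15* and *Kif4* overlaps *Pdzd11* on the opposite strand, and the strand setting of the counting is not given in the sources used here, so reads of the overlaps cannot be told apart. The sequences are the 250 bases before the start of the gene in the RefSeq promoter table for GRCm38.p6, another build than that of the counts, written 5′ to 3′ on the strand of the gene, with matches to the 4 motifs named after them in capitals.
*Kif18a*, chr2:109280488-109280737 (+): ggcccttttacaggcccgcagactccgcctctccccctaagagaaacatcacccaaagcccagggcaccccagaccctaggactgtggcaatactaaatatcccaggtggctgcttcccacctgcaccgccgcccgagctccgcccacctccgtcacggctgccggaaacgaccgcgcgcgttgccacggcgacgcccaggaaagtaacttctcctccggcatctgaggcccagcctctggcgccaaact
*Kif20b*, chr19:34922108-34922357 (+): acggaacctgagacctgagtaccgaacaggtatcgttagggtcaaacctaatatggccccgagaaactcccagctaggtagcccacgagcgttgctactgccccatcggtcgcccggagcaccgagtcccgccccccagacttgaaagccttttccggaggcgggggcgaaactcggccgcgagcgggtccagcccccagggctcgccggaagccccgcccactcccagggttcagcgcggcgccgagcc
*Kif23*, chr9:61946800-61947049 (-): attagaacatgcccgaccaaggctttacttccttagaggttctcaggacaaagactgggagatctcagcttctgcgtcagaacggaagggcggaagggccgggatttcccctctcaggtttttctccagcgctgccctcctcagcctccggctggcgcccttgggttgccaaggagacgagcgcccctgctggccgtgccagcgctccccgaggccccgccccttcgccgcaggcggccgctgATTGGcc
*Kif4*, chrX:100625815-100626064 (+): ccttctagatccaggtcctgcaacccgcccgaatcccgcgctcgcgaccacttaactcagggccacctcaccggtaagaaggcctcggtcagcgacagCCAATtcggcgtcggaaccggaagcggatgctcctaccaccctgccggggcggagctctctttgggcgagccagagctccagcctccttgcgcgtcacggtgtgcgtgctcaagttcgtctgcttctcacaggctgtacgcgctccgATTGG
*Kif15*, chr9:122950831-122951080 (+): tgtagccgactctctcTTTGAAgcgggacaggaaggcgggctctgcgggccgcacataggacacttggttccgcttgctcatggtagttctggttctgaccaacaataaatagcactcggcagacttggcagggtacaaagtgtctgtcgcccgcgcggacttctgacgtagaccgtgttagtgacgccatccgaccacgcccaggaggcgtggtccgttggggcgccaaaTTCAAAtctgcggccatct

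Both strands were searched for the cell cycle homology region CHR (TTTGAA), the CCAAT box (CCAAT), an E-box (CACGTG) and the NOBOX element (TAATTG). The window of *Kif15* held CHR letters at positions -234 and -19 from the start, that of *Kif4* a CCAAT box at -152 and another at -5, and that of *Kif23* a CCAAT box at -7. Those of *Kif18a* and *Kif20b* held none of the 4 motifs. Over the 36 windows of the 32 kinesin genes in the table, CHR letters were in 8, the CCAAT box in 16, the E-box in 1 and the NOBOX element in 3. Of all 32851 windows of this length, 16% held CHR letters, 33.8% the CCAAT box, 6.02% the E-box and 7.17% the NOBOX element. The median GC content was 62.2% in the kinesin windows and 52.4% in all.

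In the transport class, the kinesin-2 genes took most of the UMIs. *Kif17*, the homodimeric kinesin-2 of cilia and dendrites, was at 298 CPM in NGO, 455 and 415 in GO1 and GO2, and 429 and 421 in GO3 and FGO, and it gave 35.6% of the UMIs of the class in NGO and 51% to 54.7% in the other stages. It overlaps *Sh2d5* on the same strand in the mm9 annotation, so part of its counts may belong to either gene. *Kif3a*, a motor subunit of the heterotrimeric kinesin-2 that builds cilia, was at 315, 215, 212, 164 and 169 CPM. It was highest in NGO, and FGO stood at 0.535 times the NGO level (0.519 to 0.550), just short of a 2-fold change. Its partner *Kif3b* was at 5.44 CPM in NGO and at 8.41 to 10.6 CPM afterwards, and *Kif3c*, the alternative partner, had at most 5 UMIs in a stage. *Kifap3*, the third subunit of the complex, was not a member by its symbol and showed a larger difference than any of them, with 92.8, 5.31, 5.73, 11.4 and 33.6 CPM from NGO to FGO. UMIs of *Kif3a* per UMI of *Kifap3* accordingly went from 3.40 (3.24 to 3.56) in NGO to 40.6 (34.3 to 48.3) in GO1 and back to 5.03 (4.80 to 5.27) in FGO. How fully the RNA of each gene was counted is not known, so the change of such a ratio between stages can be read, but not its height in 1 stage.

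Of the kinesin-1 heavy chains, which form conventional kinesin, *Kif5c* had the largest increase among members that reached 10 CPM. It was at 11.8 CPM in NGO, then 47, 44.8 and 36.4 CPM through the growing stages and 13.3 CPM in FGO. The growing stages lay well above both ends, with GO1 3.97-fold over NGO (3.50 to 4.52) and GO3 2.73-fold over FGO (2.52 to 2.97). *Kif5b*, the heavy chain found in most tissues, was at 88.1, 73.9, 62, 54.2 and 71.9 CPM, lowest in GO3. UMIs of *Kif5b* per UMI of *Kif5c* were 7.45 (6.60 to 8.44) in NGO, 1.57 (1.46 to 1.69) in GO1, 1.39 (1.28 to 1.5) in GO2, 1.49 (1.40 to 1.58) in GO3 and 5.40 (5.02 to 5.81) in FGO. The neuronal *Kif5a* had between 2 and 26 UMIs in a stage. *Kif5c* lies on chromosome 2 from 49474818 to 49630298 on the plus strand (mm9) and overlaps the gene model *Gm13525* on the same strand.

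The other transport kinesins gave fewer UMIs and were mostly level. *Kif16b*, which moves early endosomes, went from 43 CPM in NGO to 26.1 in GO2 and 38 in FGO. *Kif1b*, a carrier of mitochondria and synaptic vesicle precursors, stayed between 29.8 and 38.1 CPM. *Kif13b*, which carries phosphoinositide-bearing vesicles, was at 17, 9.08, 8.65, 13.8 and 16.4 CPM, so that both ends lay above GO1 and GO2. *Kif21a*, a neuronal motor that restrains microtubule growth, was at 12.6 CPM in NGO and at 1.08, 1.80, 0.943 and 3.30 CPM in the other stages. NGO exceeded GO1 11.6-fold (7.92 to 17.6), the largest difference among members that reached 10 CPM, on 317 UMIs in NGO and 29 in GO1. *Kif13a*, *Kif21b*, *Kif1c*, *Kif5a*, *Kif1a* and *Kif3c* did not reach 10 CPM in any stage and lay between 0.0374 and 4.76 CPM.

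Of the cilium and other class, *Kif9*, a motor of motile cilia and sperm flagella, was at 32.5 CPM in NGO and at 9.23, 7.21, 7.11 and 8.65 CPM from GO1 to FGO. NGO lay above all later stages, 3.52-fold over GO1 (3.05 to 4.08) and 3.76-fold over FGO (3.38 to 4.20). The 250 bases before its start (2 windows in the RefSeq table) held the NOBOX letters at positions -113 and -149, which are the same site seen from 2 starts. *Kif24*, a depolymerase of the mother centriole, was at 11.7, 12.1, 11.6, 13.5 and 15.7 CPM. *Kif27*, linked to motile cilia, was under 10 CPM throughout and was likewise highest in NGO, with 7.30 CPM against 1.51 to 3.22 CPM. *Kif26a* and *Kif26b*, which lack ATPase activity and act in signalling, had at most 43 and 32 UMIs in a stage, with *Kif26a* at 0 UMIs in NGO and 43 in GO1. The motile cilia genes *Kif6* and *Kif19a* and the Hedgehog regulator *Kif7* had at most 9, 1 and 1 UMIs, and *Kif12*, an epithelial kinesin, had 0 in every stage. *Kif1bp* was at 21.7, 34.6, 24.4, 19.3 and 20.9 CPM, and *Kif16bos* had at most 5 UMIs in a stage.

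Counted in the stage sums by a rule of size, with at least a 2-fold difference and at least 10 CPM in the higher stage, most kinesins past the rule were found between NGO and GO1. For this step 22 of the 39 genes had 10 CPM in either stage, 17 of them in both. Higher in GO1 were 4 genes, *Kif18a*, *Kif20b*, *Kif23* and *Kif5c*, against 20.6% of the 8527 genes examined in the same way. Lower in GO1 were 4 genes, *Kif4*, *Kif15*, *Kif21a* and *Kif9*, against 25.7% of all genes. That is 18.2% of the 22 in each direction, so that the kinesins as a group were no more often past the rule than other genes. *Kif15*, *Kif21a* and *Kif9* entered only through their level in NGO, where they were high, and *Kif15* at 10.1 CPM barely did so. With genes chosen instead by a mean of at least 10 CPM over the 5 stages, 4 of 19 kinesins were higher and 2 lower. Of the 7410 genes chosen in the same way, 20.4% were higher and 21.1% lower. The median log2 difference of the 22 was -0.03, beside -0.15 for all genes examined. It was 0.51 for the 10 spindle genes, of which 3 were higher and 2 lower, and -0.26 for the 9 transport genes, of which 1 was higher and 1 lower. These medians changed when cells of all stages were weighted otherwise, with the part of GO1 cells alone not tested. By means over cells they were -0.17 for the same spindle genes and -0.61 for the same transport genes, beside -0.37 for all genes, and without the 10 deepest cells of each stage -0.18 and -0.73, beside -0.44.

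**Figure D2:**
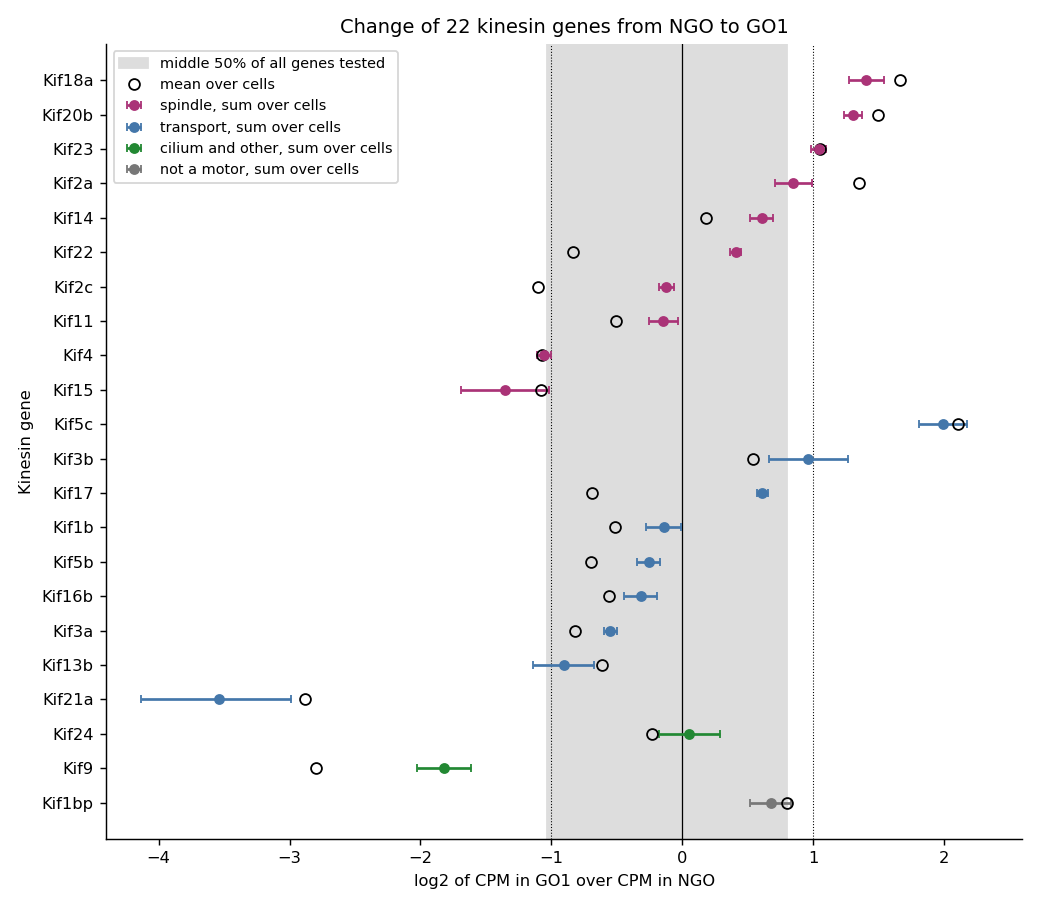
log2 of GO1 over NGO for the 22 kinesin genes that reached 10 CPM in NGO or GO1, from sums over cells (filled, with exact 95% counting intervals, coloured by class) and from means over cells (open). The grey band is the middle 50% of all 8527 genes and dotted lines mark 2-fold. *Kif17* and *Kif22* have filled points above 0 (0.61 and 0.41) and open points below 0 (-0.69 and -0.83).

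After GO1 few kinesins passed the rule in the stage sums. From GO1 to GO2, 0 of 19 kinesins were higher (0.109% of all genes) and 0 were lower (3.03% of all genes). This count of 0 changed when cells of all stages were weighted otherwise, with the part of GO1 cells alone not tested. By means over cells *Kif20a* and *Kif22* were higher in GO2 (4.16% of all genes were) and *Kif2a* was lower (12.3% of all genes were), and without the 10 deepest cells of each stage *Kif17*, *Kif22* and *Kif2c* were higher (9.43% of all genes) and *Kif2a* was lower (8.24% of all genes). From GO2 to GO3, 0 of 19 were higher (3.34% of all genes) and 0 lower (1.01% of all genes). From GO3 to FGO, 0 of 19 were higher (2.41% of all genes) and 1, *Kif5c*, was lower (3.54% of all genes). Over the whole of growth, from NGO to FGO, 22 kinesins had 10 CPM in either stage. *Kif20b* alone was higher in FGO (11.3% of all genes were), and *Kif21a* and *Kif9* were lower (16% of all genes were). *Kif21a* was at 3.30 CPM in FGO and NGO exceeded FGO 3.82-fold (3.20 to 4.56). Other scalings of the stage sums moved the balance between higher and lower over all genes in every step, and by over 10 percentage points in 3 of them. Of all genes past the rule, 44.5% were higher from NGO to GO1 (50.1% with the size factors of DESeq2, 53.2% with the TMM factors of edgeR) and 40.5% from GO3 to FGO (32% and 32.6%). Likewise, 3.46% were higher from GO1 to GO2 (14.6% with the factors of DESeq2, 11.4% with TMM factors), 76.8% from GO2 to GO3 (59.2% and 66.8%) and 41.4% from NGO to FGO (49% and 56.8%). With either scaling, *Kif15* and *Kif4* no longer passed the rule in the step from NGO to GO1. *Kif4* was at a log2 difference of -0.95 and -0.89 with the factors of DESeq2 and edgeR, and *Kif15*, at -1.25 and -1.19, no longer reached 10 CPM.

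Single oocytes of a stage spread widely around these sums. For *Kif20b*, NGO cells ranged from 40.6 to 247 CPM with a median of 90.1, and GO1 cells from 95.2 to 1134 CPM with a median of 255. All 51 GO1 cells, all 26 GO2 cells and all 44 GO3 cells lay above the NGO median, as did 54 of 56 FGO cells. For *Kif23*, 48 of 51 GO1 cells lay above the NGO median of 127.6 CPM, but only 27 of 56 FGO cells. For *Kif18a*, 44 of 51 GO1 cells lay above the NGO median of 21.8 CPM. Most GO1 oocytes lay above the median NGO cell for these 3 genes, while the ranges of both stages overlapped. The 3 genes are described here because their sums over the same cells were higher in GO1, so this is no separate support.

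For *Kif5c*, 42 of 51 GO1, 25 of 26 GO2 and all 44 GO3 cells lay above the NGO median of 9.88 CPM, against 26 of 56 FGO cells. GO3 cells ranged from 14.3 to 117.4 CPM with a median of 32.4, and FGO cells from 0 to 37.2 CPM with a median of 8.44. With every cell thinned to 20000 UMIs, which left out no cell, a UMI of *Kif5c* was seen in 17.4% of NGO cells (exact binomial interval 7.82% to 31.4%), 56.9% of GO1 cells (42.2% to 70.7%), 50.0% of GO2 cells (29.9% to 70.1%), 59.1% of GO3 cells (43.2% to 73.7%) and 16.1% of FGO cells (7.62% to 28.3%). With all UMIs these shares were 82.6%, 86.3%, 96.2%, 100% and 78.6%. At equal depth the share of cells with a UMI was thus higher in the growing cells counted here than in those of either end. These intervals cover the counting of cells alone and not the spread between animals or libraries, and *Kif5c* is described here because its sums had this course.

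Of the genes that were lower, *Kif4* was above the NGO median of 318 CPM in 2 of 51 GO1 cells, 0 of 26 GO2 cells, 0 of 44 GO3 cells and 12 of 56 FGO cells. *Kif9* was above its NGO median of 32.2 CPM in 1 GO1 cell and in no cell of the later stages. At 20000 UMIs per cell, *Kif9* was seen in 56.5% of NGO cells (41.1% to 71.1%) and in 11.8% of GO1 (4.44% to 23.9%), 15.4% of GO2, 18.2% of GO3 and 10.7% of FGO cells (4.03% to 21.9%). With all UMIs it was seen in 97.8%, 37.3%, 84.6%, 93.2% and 83.9% of cells. At equal depth the share of cells with a UMI of *Kif9* was thus lower in every stage of the older mice than in NGO. *Kif21a* was seen in 23.9% of thinned NGO cells (12.6% to 38.8%), in 0% of GO1 cells (up to 6.98%), and in 7.69%, 2.27% and 10.7% of GO2, GO3 and FGO cells. These intervals cover the counting of cells alone. *Kif4*, *Kif9* and *Kif21a* are described here because their sums over the same cells were lower in GO1, so the shares are no separate support.

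**Figure D3:**
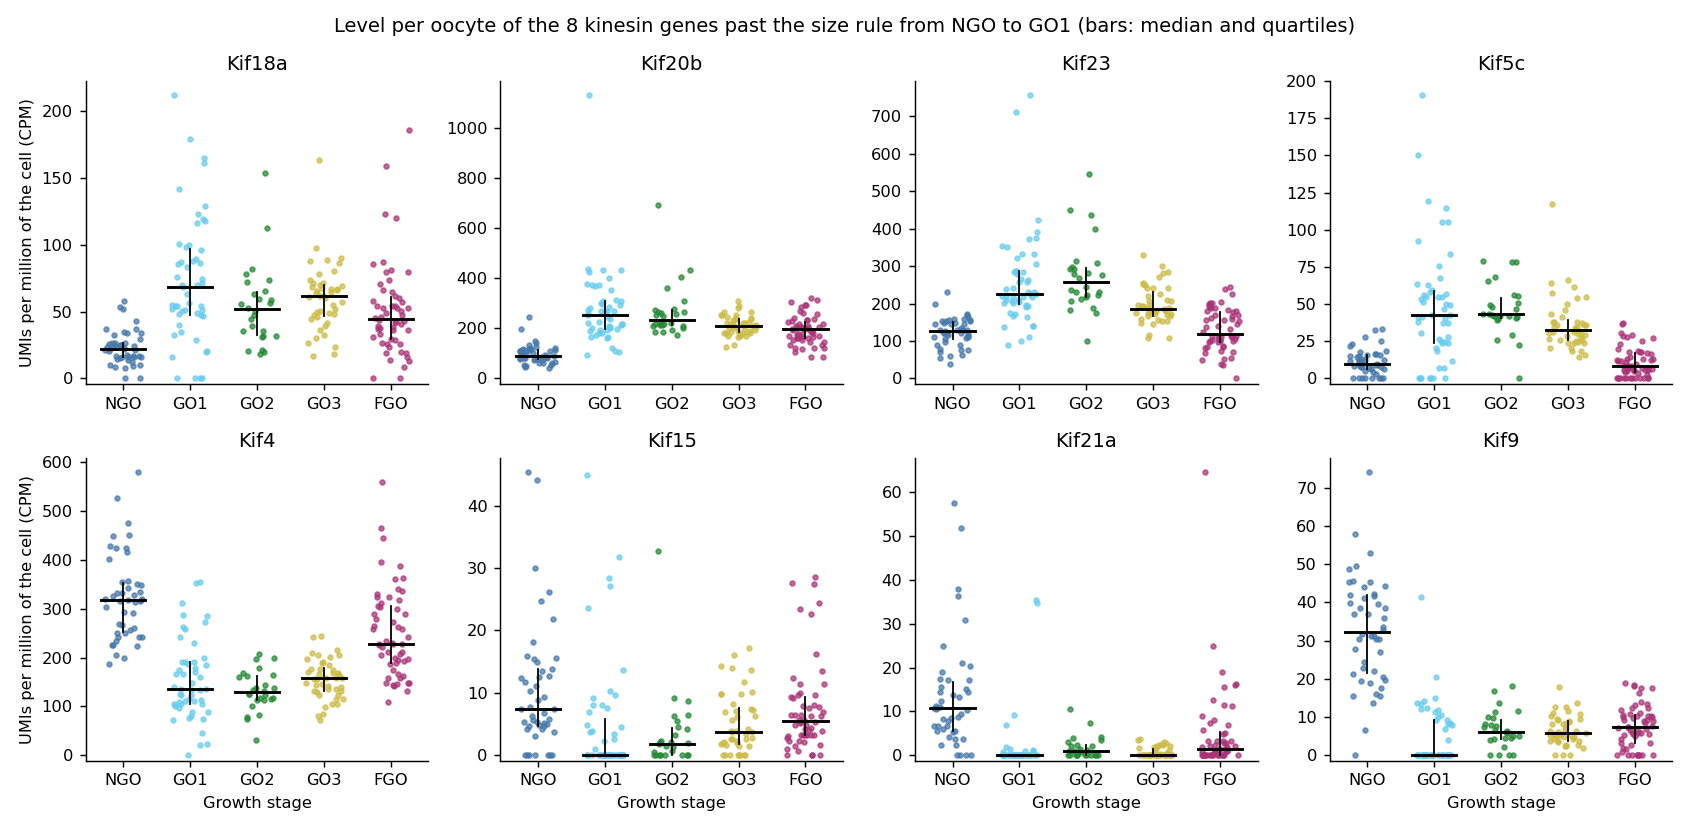
CPM in single oocytes (1 point per cell) by stage for the 4 kinesins higher and the 4 lower in GO1 than in NGO, with the median and quartiles as black bars. *Kif5c* cells of the growing stages sit above most NGO and FGO cells, and the GO1 medians of *Kif15*, *Kif21a* and *Kif9* are 0. GO1 cells are shallow, with a median of 110146 UMIs. *Kif24* (not drawn), level in the sums at 11.7 CPM in NGO and 12.1 CPM in GO1, also has a GO1 cell median of 0.

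Spindle kinesins gave more UMIs than transport kinesins in every stage, in counts that were not calibrated between genes. The spindle class summed to 1227 CPM in NGO (interval 1213 to 1240), 1494 in GO1 (1479 to 1509), 1380 in GO2 (1365 to 1395), 1262 in GO3 (1253 to 1272) and 1322 in FGO (1313 to 1331). The transport class summed to 837, 890.0, 815, 785 and 782 CPM. The ratio of the classes, which no scaling between stages affects, was 1.46 (1.44 to 1.49) in NGO, 1.68 (1.65 to 1.71) in GO1, 1.69 (1.66 to 1.72) in GO2, 1.61 (1.59 to 1.63) in GO3 and 1.69 (1.67 to 1.71) in FGO. NGO was the lowest and the 4 later stages lay close to one another. In the stage sums, from NGO to GO1 the spindle class was 1.22-fold higher (1.2 to 1.24) and the transport class 1.06-fold higher (1.04 to 1.08), and from NGO to FGO they stood at 1.08-fold (1.06 to 1.09) and 0.934-fold (0.919 to 0.950). By means over cells the spindle class was level from NGO to GO1 (1183 and 1188 CPM) and the transport class went from 867 to 567 CPM, 0.653 times, so that the direction of the transport class turned.

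In single cells the share of the spindle class among the UMIs of both classes had a median of 58.2% in NGO (quartiles 52% and 64.2%), 67.8% in GO1 (64.2% and 72.6%), 63.7% in GO2 (59% and 67.6%), 62.5% in GO3 (58.4% and 66.3%) and 65.4% in FGO (59.4% and 67.7%). Spindle UMIs outnumbered transport UMIs in 39 of 46 NGO cells, 49 of 51 GO1 cells and all cells of GO2, GO3 and FGO. The ranges overlapped in all stages, from 44% to 73.1% in NGO and from 46.5% to 84.4% in GO1, where the shallowest cell had only 23 UMIs of both classes. The order of the stages turned on the weight of the cells. By sums GO1 did not stand above GO2 and FGO, whereas by means over cells the ratio was 2.10 in GO1, against 1.36 in NGO, 1.74 in GO2, 1.64 in GO3 and 1.75 in FGO. Single genes weighed on the ratio as well. Without *Kif22* and *Kif17*, the genes with the most UMIs in each class, the log2 ratio over the 5 stages was 0.82, 1.38, 1.35, 1.49 and 1.51, beside 0.55, 0.75, 0.76, 0.69 and 0.76 with them.

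**Figure D4:**
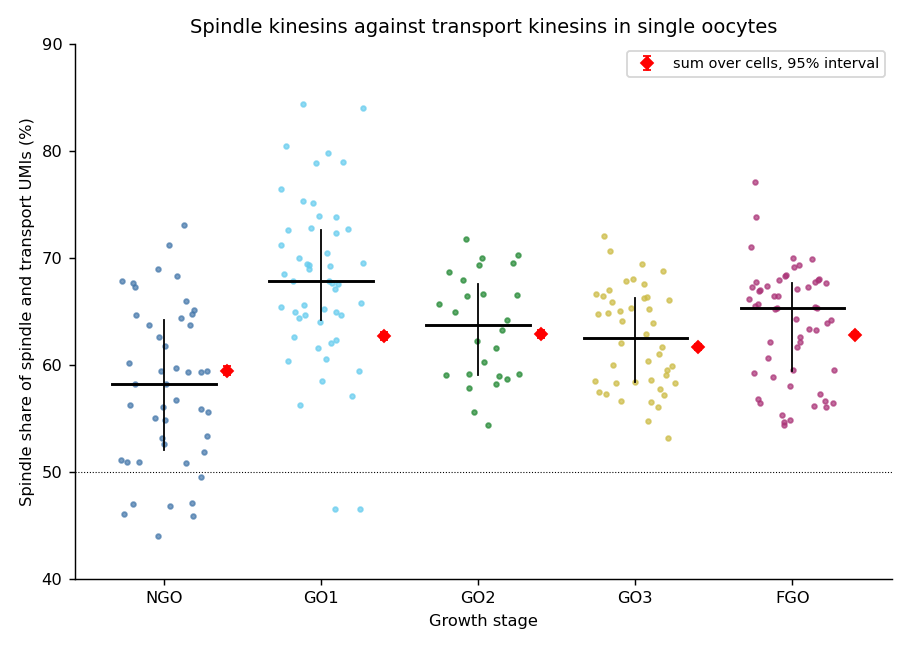
Share of the spindle class among spindle and transport kinesin UMIs (%) in each oocyte by stage, with medians and quartiles in black and the share in the stage sums in red (exact binomial 95% interval). In GO1 the median cell is at 67.8% and the sum, of which the 10 deepest cells hold 80.4% of all UMIs, at 62.7%.

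In GO1, 3 abundant kinesins were over 2-fold higher in the deepest cells than in the rest. This comparison was chosen after the data were seen. The 10 deepest GO1 cells held at least 421142 UMIs each, and the other 41 had a median of 82450. *Kif17* was at 532 CPM in the 10 deepest cells and 140 CPM in the rest, a ratio of 3.81 (3.53 to 4.11). *Kif22* was at 425 against 106.8 CPM, a ratio of 3.98 (3.65 to 4.34), and *Kif2c* at 206 against 56.5 CPM, a ratio of 3.64 (3.23 to 4.10). Of the 18 kinesins with at least 10 CPM in GO1, these 3 were at least 2-fold higher in the deepest cells, beside 19.8% of 7283 genes, and 0 were 2-fold lower, beside 3.97% of genes. The share among kinesins was thus near that of all genes. Among kinesins under 10 CPM in GO1, *Kif9* was also 2.37-fold higher in the deepest cells (1.54 to 3.82), on 23 UMIs in the other cells. *Kif20a* at 1.84-fold (1.24 to 2.84) and *Kif14* at 1.82-fold (1.61 to 2.05) leaned the same way short of 2-fold, while *Kif2a* was lower in the deepest cells, at 0.563 times (0.497 to 0.639). *Kif21a* was at 0.462 times, with an interval of 0.205 to 1.11 on 19 UMIs in the deepest and 10 in the other cells. *Kif20b*, *Kif23*, *Kif4* and *Kif5c* lay closer together. *Kif20b* was at 240 CPM in the deepest and 250.2 CPM in the other GO1 cells, and *Kif23* at 283 and 243 CPM. *Kif4* was at 161 and 155.1 CPM, and *Kif5c* at 45.9 and 51.4 CPM.

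The same 3 genes leaned towards deep cells in the other stages of older mice, with smaller ratios of the 10 deepest cells to the rest. For *Kif22* the 10 deepest cells exceeded the rest 1.28-fold (1.22 to 1.34) in GO2, 1.58-fold (1.52 to 1.63) in GO3 and 1.5-fold (1.46 to 1.55) in FGO, and 1.04-fold (0.996 to 1.10) in NGO. *Kif17* went the other way in NGO, with 232 CPM in the deepest and 346 CPM in the other cells, and single NGO cells ranged from 6.06 to 876 CPM. Over the cells of a stage, the Spearman correlation of depth with CPM was 0.48 to 0.70 for *Kif22* and 0.39 to 0.68 for *Kif2c*. For *Kif17* it was 0.41 to 0.76, leaving NGO at -0.17 aside. In GO1 the correlations were 0.48 for *Kif22*, 0.39 for *Kif2c* and 0.49 for *Kif17*, each below that in GO2 (0.70, 0.64 and 0.76). By this measure GO1 did not stand out, and the 3 genes did not stand alone in it. Over GO1 cells the correlation was also 0.75 for *Kif20a*, 0.57 for *Kif9*, 0.56 for *Kif3b* and 0.46 for *Kif5b*. It was between -0.16 and -0.02 for *Kif20b*, *Kif2a*, *Kif18a* and *Kif1bp*. The correlations are descriptions over 26 to 56 cells, with CPM and depth sharing the total of the cell. In GO1, the 11 oocyte markers summed to 16395 CPM in the deepest and 11688 CPM in the other cells, and the granulosa markers to 29 and 31.7 CPM. The part of depth in the differences between stages was not tested.

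Sums and means over cells differed in direction for some genes. From NGO to GO1, *Kif17* was 1.53-fold higher in the sums and at 0.619 times the NGO level in the means over cells, and *Kif22* was 1.33-fold higher in the sums and at 0.562 times in the means. *Kif2c* was at 0.920 times by sums and 0.465 times by means, which passed the rule. *Kif2a* moved the other way, from 1.80-fold higher by sums to 2.55-fold by means, also past the rule. From GO1 to GO2, 10 of 19 kinesins had opposite signs in sums and means, compared with 3 of 22 from NGO to GO1. All 8 genes past the rule from NGO to GO1, which were chosen on sums of the same cells, kept their direction by means over cells. *Kif5c* was then 4.30-fold, *Kif18a* 3.18-fold, *Kif20b* 2.83-fold and *Kif23* 2.08-fold higher in GO1, and *Kif4* was 2.10-fold and *Kif15* 2.11-fold lower. *Kif9* and *Kif21a* moved most, *Kif9* from 3.52-fold to 6.94-fold lower and *Kif21a* from 11.6-fold to 7.36-fold lower.

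**Figure D5:**
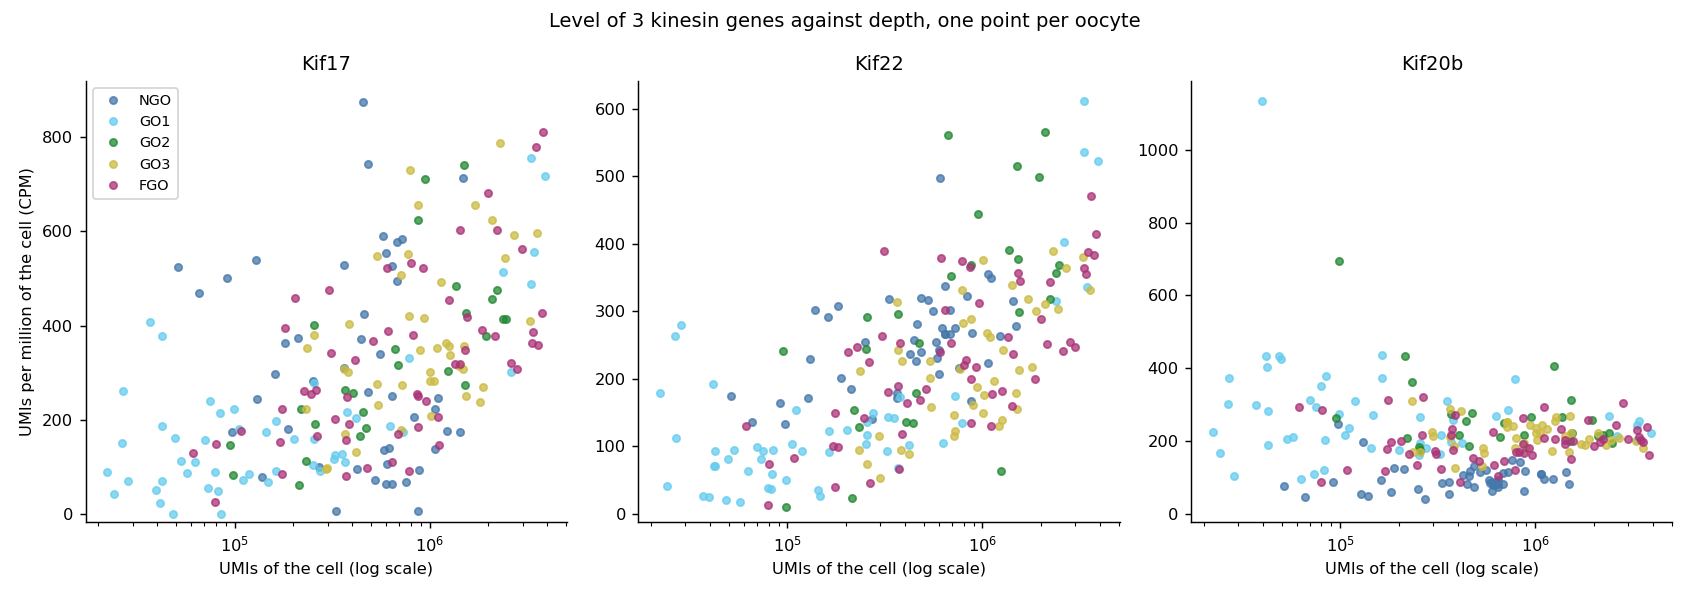
CPM of *Kif17*, *Kif22* and *Kif20b* in each oocyte against the UMIs of the cell (log axis), coloured by stage. In GO1 the 10 deepest cells are 3.81-fold above the rest for *Kif17* and 3.98-fold for *Kif22*, whereas *Kif20b* stays at 240 and 250.2 CPM.

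Other microtubule motors and partners were read from lists by role. Of the kinesin motors whose symbols carry no number, *Cenpe*, the kinetochore kinesin-7, was at 142.7 CPM in NGO, 360 and 320 in GO1 and GO2, and 272 and 212 in GO3 and FGO, 2.52-fold higher in GO1 than in NGO (2.43 to 2.62), a course like that of *Kif23*. *Kifc1* (minus-end directed, of the spindle) was at 17.3 CPM in NGO and 5.50 to 10.5 CPM later. It may share reads with its near-identical copy *Kifc5b*, which was not examined, so its level is uncertain. In the stage sums, 1 of 3 genes examined in this list was higher in GO1 and 0 were lower. Among 11 partners of spindle kinesins, such as the kinases of the Aurora family and *Tpx2*, 0 were higher in GO1 and 1, *Aurkb*, was lower, with 45.4 CPM in NGO and 20.6 CPM in GO1. By means over cells, *Prc1*, which bundles microtubules of the central spindle, was higher too (675 and 1629 CPM), and *Kifc1* was lower (18.6 and 6.64 CPM). Of the light chains and adaptors that link kinesins to cargo, 0 of 4 were higher and 2 were lower, *Klc4* (16.1 to 5.46 CPM) and *Kifap3*. Of 17 genes of cytoplasmic dynein and dynactin, the motor that walks the opposite way, 0 were higher and 6 were lower, namely *Dync1h1*, *Dync1li1*, *Dynll1*, *Dctn1*, *Dctn2* and *Dctn6*, with *Dynll1* at 2311 CPM in NGO and 341 CPM in GO1. By means over cells 1, *Dynll2*, was higher and 8 were lower. Over all genes, 20.6% were higher and 25.7% lower in the sums, and 22.1% and 34.6% by means. In the sums, the median log2 difference from NGO to GO1 was 0.06 for the motors without a number and 0.15 for the spindle partners. It was -0.70 for the light chains and adaptors and -0.53 for dynein and dynactin, beside -0.15 for all genes. These list medians were not computed by means over cells. Without the 10 deepest cells of each stage, 1 of 11 spindle partners (*Prc1*) was higher and 4 were lower (*Aurka*, *Aurkb*, *Incenp* and *Racgap1*). Of the 3 motors without a number, 1 (*Cenpe*) was higher and 2 (*Kifc1* and *Kifc3*) were lower. Dynein and dynactin had 1 higher and 9 lower of 17. Over all genes, 21.6% were then higher and 37.6% lower.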

How the data were processed

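Per the study's methods and the labels, the authors split the reads of 4 single-cell RNA-seq libraries by cell barcode, trimmed adapters, mapped reads to the mm9 transcriptome (Tophat) and removed duplicate UMIs. The deposited table gives raw counts of UMIs per gene for the 223 cells that passed their filters, without normalization. The libraries used overlapping sets of barcodes, and barcodes are not paired with cells, so cells of a stage were summed as 1 sample. Data of iscCOOL-seq were not analysed here. Members, classes and lists were chosen with earlier results of these data known.

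Stage sums were divided by the stage total (CPM). A gene passed the size rule at a 2-fold difference and at least 10 CPM in the higher stage. A count of 0 was read as up to 3 UMIs. No p-value was computed, since 1 sample per stage leaves no replicate. All members are accounted for by name, with stage values for those that reached 10 CPM, folds for those past the rule, and for the other lists the genes past the rule. Protein sequences, planned for 8 motors, are not shown, since no protein table was used here, and promoters are shown instead. Positions come from GENCODE vM1 (NCBIM37, the same build as mm9), in which 37 of 39 members had a record. Alternatives were size factors of DESeq2 1.42.0, TMM factors of edgeR 4.0.16 (both for scaling only), means over cells, sums that left out the 10 deepest cells per stage, cells thinned to 20000 UMIs, other limits on level and fold, and other class definitions. Class medians and list counts by means over cells and without the deepest cells were added after the data were seen. Scripts ran in R 4.3.3 and in Python 3.11.15 with matplotlib 3.10.9, scipy 1.17.1, pandas 2.3.3 and numpy 2.4.6, with a fixed seed. No doublets were called, because oocytes were picked by hand.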

Additional observations from a re-analysis of the deposited data

How the results depend on the processing

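Counts below are kinesins past the rule of size, unless given for all genes. From NGO to GO1, 2 were lower with the factors of DESeq2 and 2 with TMM factors (*Kif4* and *Kif15* were lost), 7 without a limit on level and 1 with at least 50 CPM, while 9 were higher without a limit and 9 at 1.5-fold. Of all genes, 1936 of 8391 were lower with the factors of DESeq2 and 1797 of 8333 with TMM factors. Without a limit, 4938 of 17703 genes were higher and 5491 lower. With at least 50 CPM 966 of 4396 genes were lower, and at 1.5-fold 2555 of 8527 were higher. The factors moved the median log2 difference of all genes from -0.15 to -0.02 and 0.05. From GO1 to GO2, means over cells gave 2 higher (*Kif20a*, *Kif22*) and 1 lower (*Kif2a*). Without the 10 deepest cells per stage, 3 were higher (*Kif17*, *Kif22*, *Kif2c*) and 1 lower. Thinning gave 2 lower, no limit on level 1 higher and 6 lower, and 1.5-fold 1 lower. For all genes, thinning gave 1149 of 7378 lower, no limit 1407 higher and 2695 lower of 17257, and 1.5-fold 1038 of 7356 lower. By means over cells 4.16% of all genes were higher and 12.3% lower, and without the deepest cells 9.43% and 8.24%. From GO2 to GO3, 1 kinesin was higher after thinning, 2 without a limit (1 lower) and 2 at 1.5-fold. Among all genes, 916 of 7485 were higher after thinning, 2915 of 17548 without a limit (1538 lower) and 768 of 7334 at 1.5-fold. From GO3 to FGO, 5 kinesins were higher without a limit, and 2 were lower after thinning, 2 without a limit and 0 with 50 CPM. Without a limit, 2685 of 18052 genes were higher and 2462 lower. After thinning 705 of 7694 genes were lower, and with 50 CPM 81 of 3733. From NGO to FGO, 2 kinesins were higher with either set of factors, with means over cells, without the deepest cells or at 1.5-fold, 4 after thinning and 3 without a limit, while 4 were lower without a limit, 0 with 50 CPM and 5 at 1.5-fold. Higher among all genes were 1036 of 7977 with the factors of DESeq2, 1206 of 7947 with TMM factors and 803 of 8055 with means over cells. The count was 920 of 8083 without the deepest cells, 1718 of 8132 at 1.5-fold and 947 of 8052 after thinning. Without a limit, 3939 of 18007 genes were higher and 4270 lower. Lower were 545 of 4113 genes with 50 CPM and 2442 of 8132 at 1.5-fold. *Kif15* turned from a log2 difference of -1.35 to 0.27 after thinning, where few UMIs remained. Without the deepest cells, 5 kinesins were lower in GO1 than in NGO (37.6% of all genes were), of which 2 (*Kif9* and *Kif21a*) were among the 4 of the sums. *Kif17*, *Kif22* and *Kif2c* were new, while *Kif4* (log2 -0.98) and *Kif15* (-1.01, under 10 CPM) no longer passed.

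The log2 ratio of spindle to transport UMIs (0.55, 0.75, 0.76, 0.69 and 0.76 from NGO to FGO) became 0.45, 1.07, 0.80, 0.72 and 0.81 with means over cells. Without the deepest cells it was 0.38 in NGO, 1.07 in GO1 and 0.77 in GO3. Thinned cells gave 1.08, 0.84, 0.78 and 0.73 from GO1 to FGO. Narrower classes gave 0.71 in GO1, 0.66 in GO3 and 0.74 in FGO, and leaving out *Kif22* and *Kif17* gave 0.82, 1.38, 1.35, 1.49 and 1.51. It stayed above 0 in all of these. The causes were not tested. No paired analysis was possible because the cells of the count table carry no replicate number shared between stages and no test was run. In a cell thinned to 20000 UMIs, a gene at 10 CPM gives less than 1 UMI on average.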
